A study of Mus musculus with 4 samples.

Results

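Lin28a, Lin28b, Trim71, Hmga1, Hmga2, Igf2bp1, Igf2bp2 and Igf2bp3 are the mouse genes of 4 small families that are counted among the timing genes of the early embryo. They were taken by name as the members of the LIN28, TRIM71, HMGA and IGF2BP families. All 8 were among the 39179 genes of the deposited count files and among the 15822 with enough counts to be tested. Gene expression was measured by RNA sequencing in 4 single mouse embryos. They were chimeras, in which embryonic stem cells (ESCs) injected at the 8-cell stage had mixed with host cells of a cross named ARC x RLZRFP. In 2 embryos the ESCs carried FLAG-Lhx1, an inducible tagged form of the LIM homeodomain transcription factor LHX1, and in the other 2 they carried FLAG-Lhx1-mt, an altered form of it. In both groups the mothers drank doxycycline at 2 mg/mL in 5% sucrose for 24 hours, and the embryos were taken at E8.5 but staged at E7.75 because they lagged. Embryos without induction were not analysed here. The alteration in FLAG-Lhx1-mt, the promoter of the transgenes and the number of ESC clones are details not given in the sources used here, and each embryo still holds host cells in a share that the counts do not give.

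LIN28A and LIN28B are RNA-binding proteins that block the maturation of the let-7 microRNAs. TRIM71, also called LIN41, is a ubiquitin ligase and RNA-binding protein that represses messenger RNAs. HMGA1 and HMGA2 are small chromatin proteins that bind AT-rich DNA, and IGF2BP1 to IGF2BP3 bind messenger RNAs, Igf2 among them, and steer their stability, transport and translation. These genes are active in early embryos and mostly fall as tissues mature, while let-7, which targets many of them, accumulates. The worm relatives of LIN28 and TRIM71 were found as genes that set the timing of larval cell fates in Caenorhabditis elegans.

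The let-7 family is shown first because it links the 8 genes through short matches in their 3' untranslated regions (UTRs). Mature sequences are from the RefSeq table for GRCm38.p6, and capitals mark the seed, bases 2 to 8, which pairs with the target. Of 11 mature let-7 and miR-98 names in that table, 10 share the seed GAGGUAG. The 4 shown differ only outside it. The let-7a sequence shown is that of Mirlet7a-1 (chr13:48538239-48538260, minus strand), let-7g lies at chr9:106178846-106178867 (plus strand), let-7i at chr10:122985698-122985719 (minus strand) and miR-98 at chrX:151913229-151913250 (plus strand).
let-7a: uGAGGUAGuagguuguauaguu
let-7g: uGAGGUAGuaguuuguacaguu
let-7i: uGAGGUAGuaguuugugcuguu
miR-98: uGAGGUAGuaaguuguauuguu

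All 8 genes hold at least 1 match to this seed in their longest annotated 3' UTR. For every gene the longest 3' UTR of any protein-coding isoform was used, so other isoforms may hold fewer matches. The search was for CTACCTC, the reverse complement of the seed, and for the longer CTACCTCA, on the transcript strand only, and each longer match contains a shorter one. Of 14020 tested genes with an annotated 3' UTR, 10.7% had at least 1 match to CTACCTC. Only 12 of them had 4 or more, and 4 of these 12 are Lin28b, Trim71, Hmga2 and Igf2bp1, with 4 matches each. Lin28a has 2, and Hmga1, Igf2bp2 and Igf2bp3 have 1 each. The longer form occurs 4 times in Trim71, 3 times in Igf2bp1, 2 times in Lin28a, once each in Lin28b, Hmga2, Igf2bp2 and Igf2bp3, and not at all in Hmga1. One site per gene is shown here, 30 bases of the transcript strand ending in the match, which is in capitals. The letters and positions are from GENCODE vM21 on GRCm38, and all but Hmga1 lie on the minus strand. The sites are at chr4:134005189-134005218 (Lin28a), chr10:45381022-45381051 (Lin28b), chr9:114512472-114512501 (Trim71), chr17:27563269-27563298 (Hmga1), chr10:120364224-120364253 (Hmga2), chr11:95961778-95961807 (Igf2bp1), chr16:22059473-22059502 (Igf2bp2) and chr6:49086787-49086816 (Igf2bp3). A match is a description of the sequence and does not show that let-7 binds there.
Lin28a: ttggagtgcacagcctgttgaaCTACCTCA
Lin28b: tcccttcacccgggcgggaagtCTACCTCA
Trim71: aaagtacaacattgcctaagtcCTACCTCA
Hmga1: ccatcttctcctctgttcacaaaCTACCTC
Hmga2: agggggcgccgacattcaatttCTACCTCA
Igf2bp1: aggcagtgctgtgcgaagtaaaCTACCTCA
Igf2bp2: gagaaaaacacacaaataaaagCTACCTCA
Igf2bp3: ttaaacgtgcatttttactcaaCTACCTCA

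These counts of matches partly follow UTR length, which was 6337 bases in Igf2bp1, 5512 in Trim71 and 4445 in Lin28b, against 1183 in Hmga1 and 1784 in Igf2bp2. Among tested genes with a 3' UTR of like length, the shorter of the pair being at least 0.8 times the longer, 0.157% had as many matches as Hmga2, 0.358% as many as Lin28b, 0.412% as many as Igf2bp1 and 0.587% as many as Trim71. For Lin28a the share was 2.40%. For Hmga1, Igf2bp2 and Igf2bp3, with a single match each, it was 8.93%, 12.7% and 14.2%. Each share counts the gene itself and any other member of like length, such as Trim71 in the share for Igf2bp1.

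The 4 libraries held 21267116 to 30434442 counts, so 3 counts, taken as the limit of detection, equal 0.0959 to 0.153 CPM, the counts of a gene per 1000000 counts of the library after TMM scaling. The counts cannot tell copies made in pre-amplification from separate molecules, so this limit covers counting error only. The predicted gene Gm10800 took 8.02% and 13.8% of the counts in the FLAG-Lhx1 libraries, against 7.34% and 5.72% in the FLAG-Lhx1-mt libraries. Its share was largest in FLAG-Lhx1 replicate 2, the library with the fewest counts. Across genes, the correlation of log2 CPM was 0.982 between the FLAG-Lhx1 embryos, 0.978 between the FLAG-Lhx1-mt embryos, and 0.965 to 0.970 for embryos of different groups. A gene was called where edgeR's quasi-likelihood test gave a Benjamini-Hochberg adjusted p under 0.05 over all tested genes. All log2 folds are FLAG-Lhx1 over FLAG-Lhx1-mt, so positive values are higher in FLAG-Lhx1. The edgeR p-values set a difference against the spread between embryos of a group. That spread is estimated mostly from all genes together (13.4 prior degrees of freedom) and less from the gene's own embryos (2 residual degrees of freedom). Lhx1 itself had 129 and 114 CPM in the FLAG-Lhx1 embryos, against 126 and 98.5 CPM in the FLAG-Lhx1-mt embryos, and was not called (edgeR adjusted p = 0.733). Its counts add the transgene and the endogenous gene and do not check which form an embryo carried.

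Of the 8 genes, only Hmga2 was called between the groups, and it was higher in FLAG-Lhx1. Of all tested genes 6.17% were called, 2.62% higher and 3.55% lower, against 1 of 8 here (12.5%), 1 higher and 0 lower. With 1 call the share says little about the group. At an unadjusted p under 0.05 there were 3 of the 8 genes, Hmga2, Igf2bp2 and Lin28b, all higher in FLAG-Lhx1, against 21.3% of all tested genes. Embryos of the 2 groups did not overlap for 5 of the 8: Lin28b, Hmga2, Igf2bp2 and Igf2bp3 were above and Lin28a was below in FLAG-Lhx1. Among all tested genes 52.2% did not overlap, 26.4% higher and 25.8% lower. The median log2 fold of the 8 genes was 0.05, against 0.01 over all tested genes. Their summed level was 805 and 740 CPM in FLAG-Lhx1, against 686 and 665 CPM in FLAG-Lhx1-mt, and Hmga2 gave most of that gap.

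**Figure D1:**
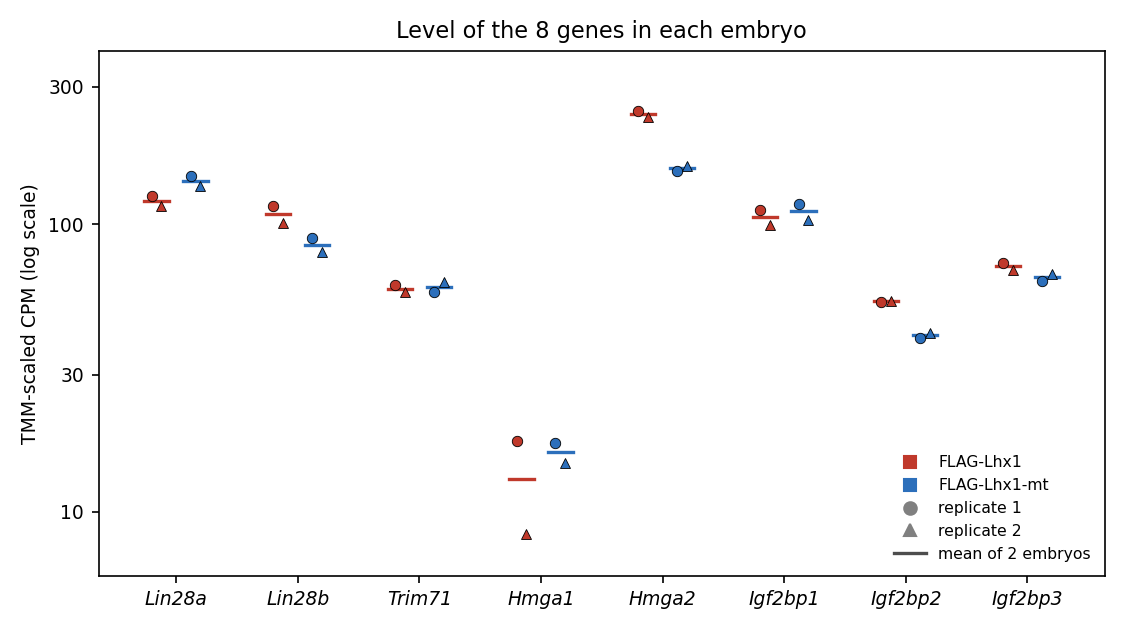
Level of each of the 8 genes in every embryo, in TMM-scaled CPM, with FLAG-Lhx1 left of FLAG-Lhx1-mt, 1 point per embryo and a bar for the mean. Hmga2 sits at 247 and 236 CPM in FLAG-Lhx1, above 153 and 159 CPM in FLAG-Lhx1-mt, while the embryos of Trim71, Hmga1 and Igf2bp1 overlap.

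Levels can be compared between the genes only per length. Per kilobase of all annotated exons, Lin28a averaged 32.7 CPM per kb over the 4 embryos and Hmga2 29.3 CPM per kb. They were followed by Igf2bp1 at 11.2, Lin28b at 10.6, Igf2bp3 at 8.36, Hmga1 at 6.85, Trim71 at 6.43 and Igf2bp2 at 6.41 CPM per kb. The place of Hmga1 is uncertain, since its level leaves out the counts of a near-identical copy, Hmga1b, described further on. Between neighbours in this order, the ranges over the 4 embryos were apart only at the step from Hmga2 (22.6 to 36.4 CPM per kb) to Igf2bp1 (10.2 to 12.1 CPM per kb). With this length, the first 2 places differed between the groups. Hmga2 averaged 35.6 ± 1.15 and Lin28a 30.1 ± 1.73 CPM per kb in FLAG-Lhx1 (SD, n = 2), whereas Hmga2 averaged 23.0 ± 0.64 and Lin28a 35.3 ± 1.95 CPM per kb in FLAG-Lhx1-mt (SD, n = 2). All 8 levels lay between the 70.4th and the 89.7th percentile of the tested genes. The order rests on the length used: per kilobase of the longest transcript, Hmga2 came first at 52.1, then Lin28a at 37.3, Lin28b at 17.9 and Igf2bp3 at 15.7 CPM per kb, and Trim71 last at 6.43 CPM per kb. By that length the mean of Hmga2 was above that of Lin28a in both groups, narrowly so in FLAG-Lhx1-mt.

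The LIN28 genes lay on opposite sides of their FLAG-Lhx1-mt levels, and neither was called. LIN28A (209 residues) and LIN28B (271 residues) share 72.0% of aligned residues, and both carry a cold-shock domain and a pair of CCHC zinc knuckles that bind let-7 precursors. Lin28a (ENSMUSG00000050966, chromosome 4 at 134003330 to 134018841 on GRCm38) had 125 and 115 CPM in FLAG-Lhx1 embryos, against 147 and 136 CPM in FLAG-Lhx1-mt embryos. Both FLAG-Lhx1 embryos were below both FLAG-Lhx1-mt embryos, by less than the test needed: the log2 fold was -0.23 ± 0.14 (SE, edgeR adjusted p = 0.370). Lin28b (ENSMUSG00000063804, chromosome 10 at 45376620 to 45486395) had 116 and 100.5 CPM in FLAG-Lhx1, against 89.3 and 80.2 CPM in FLAG-Lhx1-mt. Here both FLAG-Lhx1 embryos were above both others, with a log2 fold of 0.35 ± 0.15 (SE, unadjusted p = 0.0302, edgeR adjusted p = 0.179).

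The ratio of the 2 LIN28 transcripts was formed after these opposite directions were seen, restates them, and is given as a description. The log2 ratio of Lin28a to Lin28b CPM was 0.11 and 0.20 in FLAG-Lhx1, against 0.72 and 0.76 in FLAG-Lhx1-mt. The gap between the group means was -0.58. It was smaller with the offsets for transcript length and GC content described further on, under which the log2 fold was -0.25 for Lin28a and 0.14 for Lin28b. An exact permutation test of 2 against 2 embryos cannot give a p below 0.333. Exon models of Lin28a overlap those of the antisense gene Gm13061 over 5.86% of its exon bases, and no overlap was annotated for Lin28b.

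Trim71, the single TRIM71 gene, showed no difference that the data could resolve. Trim71 (ENSMUSG00000079259, chromosome 9 at 114507133 to 114564369) encodes a protein of 855 residues. It had 61.2 and 57.9 CPM in FLAG-Lhx1, against 58.2 and 62.9 CPM in FLAG-Lhx1-mt. The groups overlapped, and the log2 fold was -0.02 ± 0.15 (SE, edgeR adjusted p = 0.951). Under upper-quartile normalization it was 0.03, and its sign has no meaning at this precision.

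Hmga2 was the gene that differed most clearly. Hmga2 (ENSMUSG00000056758, chromosome 10 at 120361275 to 120476469) encodes an architectural chromatin protein that is high in early embryos and proliferating progenitors and is a classic let-7 target. It had 247 and 236 CPM in FLAG-Lhx1, against 153 and 159 CPM in FLAG-Lhx1-mt, from 3561 to 6462 counts per library. The mean CPM was 241 ± 7.82 in FLAG-Lhx1 embryos, against 156 ± 4.33 in FLAG-Lhx1-mt embryos (SD, n = 2 each), so the gap was many times the spread within a group. Hmga2 was 1.55-fold higher in FLAG-Lhx1 (log2 fold 0.63 ± 0.14, SE, edgeR adjusted p = 0.0151). It was also called by DESeq2 (adjusted p = 0.000746) and with offsets for transcript length and GC content (log2 fold 0.54, adjusted p = 0.0366). Without FLAG-Lhx1 replicate 1 the call was lost, at a log2 fold of 0.56 (edgeR adjusted p = 0.103).

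Hmga1 varied between embryos of a group and cannot be read apart from a near-identical copy. HMGA1 (107 residues) and HMGA2 (108 residues) share 57.4% of aligned residues. Hmga1 (ENSMUSG00000046711, chromosome 17 at 27556497 to 27563674) had 17.7 and 8.34 CPM in FLAG-Lhx1, against 17.4 and 14.8 CPM in FLAG-Lhx1-mt. The groups overlapped, and the log2 fold, -0.30 ± 0.28 (SE, edgeR adjusted p = 0.599), was 0.15 when FLAG-Lhx1 replicate 2 was left out, -0.98 when replicate 1 was, and -0.18 and -0.42 without FLAG-Lhx1-mt replicates 1 and 2. Exons of AI413582 and Gm49774 on the other strand cover 5.84% of its exon bases, and AI413582, at 9.77 and 8.55 CPM in FLAG-Lhx1, against 18.6 and 14.5 CPM in FLAG-Lhx1-mt, was itself called lower (log2 fold -0.85, edgeR adjusted p = 0.0404). The annotation also holds a copy of Hmga1, Hmga1b (ENSMUSG00000078249), on chromosome 11 at 120762794 to 120764419, which was singled out after its values were seen. Its annotated protein is 100% identical to that of Hmga1, and the 2 transcripts are 99.8% identical over 1538 aligned bases. Of all windows of 100 bases, the read length, in Hmga1b transcripts, 78.8% also occur in Hmga1. In turn, 40.1% of the windows of Hmga1 occur in Hmga1b. The sources used here do not say how reads that fit both places were counted, so the split between the 2 genes is uncertain. If such reads were left out, the sum of the 2 genes misses them too.

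Hmga1b was called lower in FLAG-Lhx1, at 11.0 and 11.7 CPM, against 28.5 and 26.1 CPM in FLAG-Lhx1-mt. Its log2 fold was -1.27 ± 0.20 (SE, edgeR adjusted p = 0.00173), and it was called with each embryo left out in turn. With the counts of both genes added, the level was 28.7 and 20.05 CPM in FLAG-Lhx1, against 45.9 and 41.0 CPM in FLAG-Lhx1-mt. The log2 fold of the sum was -0.83 ± 0.19 (SE, edgeR adjusted p = 0.0181), and it was -0.72 with the length and GC offsets (adjusted p = 0.0468). Without FLAG-Lhx1 replicate 2 it was -0.60 and was not called (adjusted p = 0.223). Hmga1b took 38.3% and 58.4% of the summed counts in FLAG-Lhx1, against 62.1% and 63.8% in FLAG-Lhx1-mt. As counted, the summed level of this pair was lower in both FLAG-Lhx1 embryos, while Hmga2 was higher in both.

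**Figure D2:**
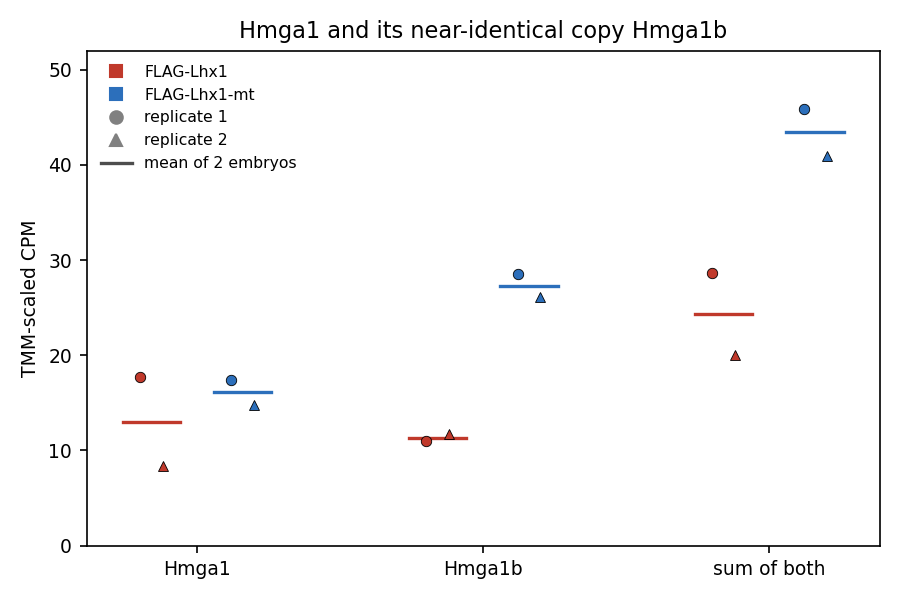
CPM of Hmga1, of its copy Hmga1b and of their sum in every embryo, FLAG-Lhx1 left of FLAG-Lhx1-mt, 1 point per embryo with a bar for the mean. The embryos overlap for Hmga1 and are apart for Hmga1b (11.0 and 11.7 against 28.5 and 26.1 CPM) and for the sum (28.7 and 20.05 against 45.9 and 41.0 CPM).

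None of the IGF2BP genes was called, and Igf2bp2 came nearest. The 3 proteins, of 577, 592 and 579 residues, share 68.7% to 75.8% of aligned residues in pairs, and IGF2BP1 and IGF2BP3 are the pair most alike. Igf2bp1 (ENSMUSG00000013415, chromosome 11 at 95957163 to 96005940) had 112 and 99.2 CPM in FLAG-Lhx1, against 118 and 104 CPM in FLAG-Lhx1-mt. Its groups overlapped (log2 fold -0.07 ± 0.15, SE, edgeR adjusted p = 0.844). Igf2bp2 (ENSMUSG00000033581, chromosome 16 at 22059009 to 22163299) had 53.5 and 54.2 CPM in FLAG-Lhx1, against 40.3 and 41.8 CPM in FLAG-Lhx1-mt. The embryos of each group lay close together and the groups apart, at a log2 fold of 0.39 ± 0.15 (SE, unadjusted p = 0.0215), but the edgeR adjusted p was 0.150.

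Igf2bp3 (ENSMUSG00000029814, chromosome 6 at 49085223 to 49214957) had 73.0 and 69.4 CPM in FLAG-Lhx1, against 63.6 and 67.0 CPM in FLAG-Lhx1-mt. The groups were apart by a narrow gap, and the log2 fold was 0.13 ± 0.15 (SE, edgeR adjusted p = 0.678). With the length and GC offsets nothing of it was left (log2 fold -0.0005). Its value is uncertain, since 18.7% of its exon bases also lie in exons of Malsu1 on the other strand, which had 93.6 and 103 CPM in FLAG-Lhx1, against 101 and 123 CPM in FLAG-Lhx1-mt. The log2 ratio of Igf2bp1 to Igf2bp2 CPM was 1.06 and 0.87 in FLAG-Lhx1, against 1.54 and 1.31 in FLAG-Lhx1-mt. It is the ratio with the largest gap of the 3 between IGF2BP genes, -0.46, against -0.19 for Igf2bp1 to Igf2bp3 and -0.27 for Igf2bp3 to Igf2bp2, and with 2 embryos a group no exact test of them can pass.

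**Figure D3:**
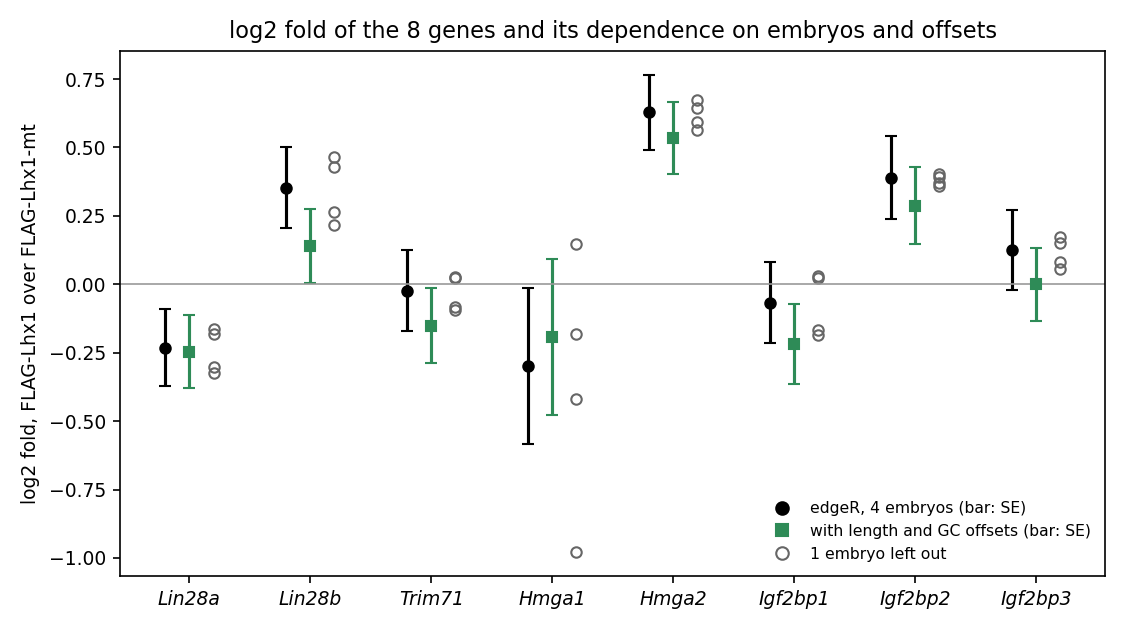
Log2 fold of each of the 8 genes, FLAG-Lhx1 over FLAG-Lhx1-mt, with its standard error, from all 4 embryos and with offsets for transcript length and GC content. Hmga2 stands at 0.63 and 0.54 and is the only gene called in both fits, while Lin28b moves to 0.14 with the offsets and Trim71 and Igf2bp1 lie near or below 0.

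Across all tested genes longer transcripts had higher log2 folds (Spearman's rho = 0.245 over 15679 genes with a known length, which are not independent) and GC-rich ones lower folds (rho = -0.163). This touches the long genes among the 8. The length and GC trend alone amounted to a log2 fold of 0.21 for Lin28b, 0.15 for Igf2bp1, 0.13 for Trim71 and Igf2bp3, 0.10 for Igf2bp2, 0.09 for Hmga2, 0.01 for Lin28a and -0.11 for Hmga1. After the offsets Lin28b had a log2 fold of 0.14 (adjusted p = 0.621), Igf2bp2 0.29 (adjusted p = 0.274), and Lin28a -0.25 (adjusted p = 0.327). Whether the trend reflects the libraries or the embryos was not tested.

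**Figure D4:**
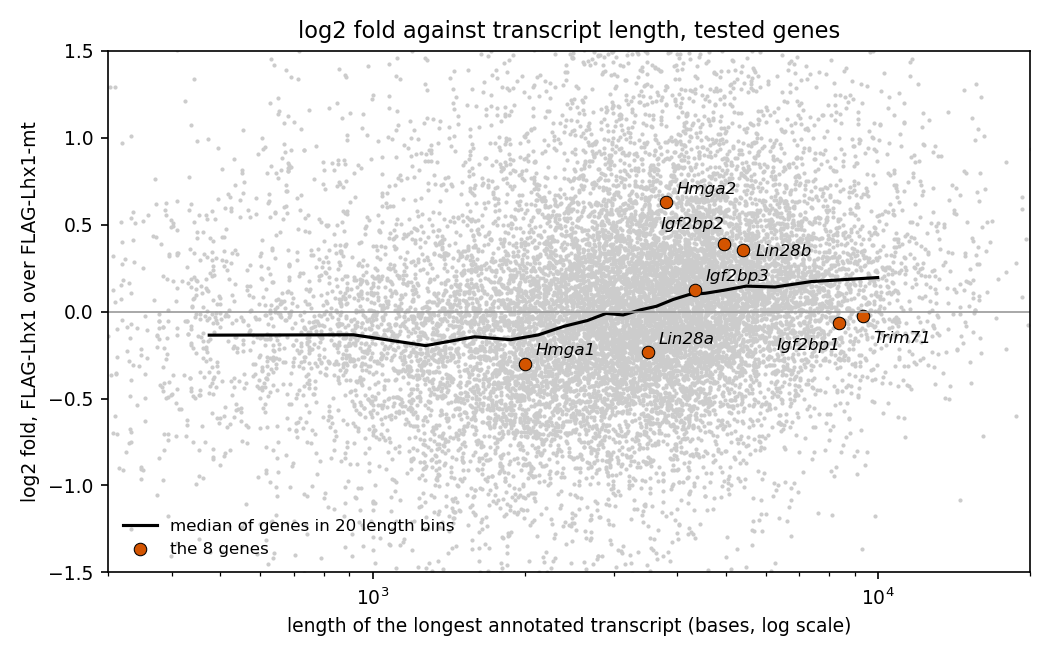
Log2 fold, FLAG-Lhx1 over FLAG-Lhx1-mt, against the length of the longest annotated transcript on a log axis for 15679 tested genes (grey), with the medians of 20 length bins (line) and the 8 genes (orange). The line rises with length, and Hmga2, Igf2bp2 and Lin28b lie above it, whereas Igf2bp1, Trim71, Lin28a and Hmga1 lie below it. Of the genes, 760 lie outside the axes.

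Among 23 other genes known as let-7 targets, 4 rose and 0 fell, with a median log2 fold of 0.06. That is 17.4% of the list, against 6.17% called over all tested genes, 2.62% higher and 3.55% lower. The strongest was Igdcc3, which encodes a cell-surface protein of the immunoglobulin superfamily, at 9.73 and 12.6 CPM in FLAG-Lhx1, against 5.03 and 2.56 CPM in FLAG-Lhx1-mt (log2 fold 1.57 ± 0.32, SE, edgeR adjusted p = 0.010). Nr6a1, which encodes an orphan nuclear receptor that acts in trunk elongation, had 193 and 199.9 CPM in FLAG-Lhx1, against 135 and 129 CPM in FLAG-Lhx1-mt (log2 fold 0.57). Arid3a, which encodes a DNA-binding protein, had 5.11 and 5.09 CPM in FLAG-Lhx1, against 2.28 and 1.66 CPM in FLAG-Lhx1-mt (log2 fold 1.38). The cell-cycle factor gene E2f5 had 102 and 84.7 CPM in FLAG-Lhx1, against 60.7 and 64.0 CPM in FLAG-Lhx1-mt (log2 fold 0.58). The embryos of the groups were apart for all 4, as for 52.2% of all tested genes. The edgeR adjusted p was 0.024 for Nr6a1, 0.029 for Arid3a and 0.034 for E2f5. Of these 4, only Igdcc3 kept its call in each fit that left out 1 embryo. The call of Nr6a1 was lost without FLAG-Lhx1 replicate 1 or 2 (log2 fold 0.57 and 0.55, edgeR adjusted p = 0.102 and 0.126), as was that of Arid3a (1.34 and 1.39, adjusted p = 0.103 and 0.0774), and that of E2f5 was lost without FLAG-Lhx1 replicate 1 (0.41, adjusted p = 0.378). With the length and GC offsets Igdcc3 and E2f5 were called, and Nr6a1 (0.42) and Arid3a (1.30) were not.

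Across all tested genes, those with the longer let-7 match had a slightly higher median log2 fold, and the order turned round with the length and GC offsets. Of 524 tested genes with CTACCTCA in the 3' UTR, 4.58% were called higher and 2.48% lower, with a median log2 fold of 0.06. Of 13496 without it, 2.78% were called higher and 3.73% lower, with a median of 0.02. With the length and GC offsets the medians were -0.03 with the match and -0.01 without it. The median 3' UTR was 2444 bases in genes with the match and 1142 bases in genes without it.

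Among genes that make microRNAs or act on let-7 precursors, 1 was called. Of 22 tested, 0 rose and 1 fell, and the median log2 fold was 0.03. The called share, 4.55%, was near the 6.17% of all tested genes. The gene that fell was Tarbp2, which encodes a partner of the nuclease DICER, at 43.8 and 34.5 CPM in FLAG-Lhx1, against 64.0 and 65.3 CPM in FLAG-Lhx1-mt (log2 fold -0.72 ± 0.16, SE, edgeR adjusted p = 0.017). Without FLAG-Lhx1 replicate 2 this call was lost (log2 fold -0.55, edgeR adjusted p = 0.225). The 10 let-7 and miR-98 precursor genes in the files had at most 2 counts in a library, below the limit of detection, and 4 of them had 0 in every library. The 3 other transcripts of that list, which harbour let-7 or miR-98 genes, were not called: Wdr82 had 103 and 96.6 CPM in FLAG-Lhx1, against 77.5 and 89.9 CPM in FLAG-Lhx1-mt, and Huwe1 and Mir99ahg had log2 folds of -0.01 and -0.42. Mature let-7 was not measured in these libraries.

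Igf2, the messenger RNA that gave the IGF2BP proteins their name, was higher in FLAG-Lhx1. Igf2 encodes the main growth factor of the fetus and is expressed from the paternal allele. It had 66.7 and 70.1 CPM in FLAG-Lhx1, against 30.7 and 31.0 CPM in FLAG-Lhx1-mt (log2 fold 1.15 ± 0.15, SE, edgeR adjusted p = 0.001). Exons of Igf2os and Gm49394 cover 64.5% of its exon bases, so part of this count may belong to them. Igf2r, whose product clears IGF2, had 70.3 and 81.1 CPM in FLAG-Lhx1, against 42.1 and 51.7 CPM in FLAG-Lhx1-mt (log2 fold 0.69, adjusted p = 0.020). It was not called without FLAG-Lhx1 replicate 2 (0.59, edgeR adjusted p = 0.149) or with the length and GC offsets (0.54, adjusted p = 0.0511). Igfbp2, whose product binds IGFs outside the cell, was lower, at 82.2 and 74.3 CPM in FLAG-Lhx1, against 148 and 177 CPM in FLAG-Lhx1-mt (log2 fold -1.06 ± 0.15, SE, edgeR adjusted p = 0.001). Of the 13 tested genes of the insulin-like growth factor axis, 2 rose and 1 fell, with a median log2 fold of 0.01. The called share was 23.1%, against 6.17% of all tested genes (2.62% higher and 3.55% lower).

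Of 6 genes listed as TRIM71 targets, whether through their messenger RNA or their protein, 1 rose and 0 fell, with a median log2 fold of 0.05. This 1 call is 16.7% of a short list, against 6.17% of all tested genes. Egr1, an immediate-early transcription factor gene, had 3.43 and 4.68 CPM in FLAG-Lhx1, against 1.46 and 0.895 CPM in FLAG-Lhx1-mt (log2 fold 1.79 ± 0.42, SE, edgeR adjusted p = 0.020), and lost the call without FLAG-Lhx1 replicate 2 (1.57, adjusted p = 0.105). In a list of 6 genes that time the shift from trunk to tail, 4 were tested, and the median log2 fold was 0.42. Of these 4, 2 were called (50%), against 6.17% of all tested genes. Nr6a1, described above, rose, and Cyp26a1, whose product breaks down retinoic acid, fell to 54.0 and 43.1 CPM in FLAG-Lhx1, against 112 and 164 CPM in FLAG-Lhx1-mt (log2 fold -1.505 ± 0.19, SE).

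**Figure D5:**
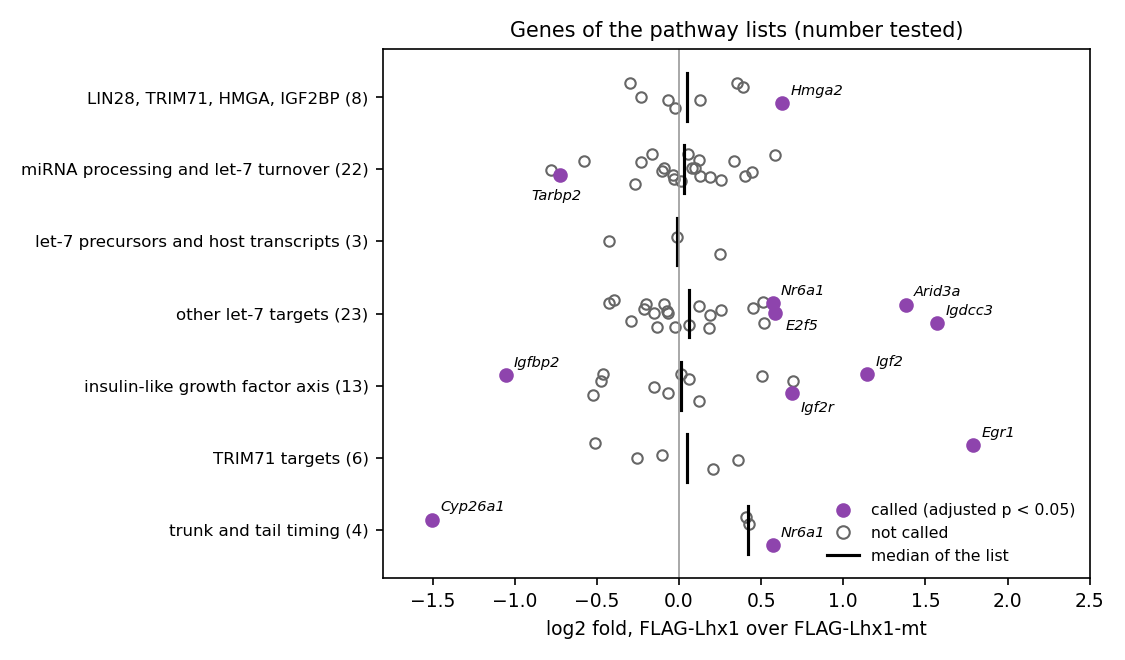
Log2 fold, FLAG-Lhx1 over FLAG-Lhx1-mt, of each tested gene of the 7 lists, with the number tested in brackets, filled points for called genes and a bar for the median. The medians of all lists but that for trunk and tail timing lie within 0.06 of 0, and the called genes are the named ones, Nr6a1 being in 2 lists.

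The groups also differed in markers of embryonic cell types, and in bulk embryos a change in cell number and a change in RNA per cell cannot be told apart. Of 8 epiblast markers, 7 were lower in FLAG-Lhx1 and 0 higher, and their summed level was 574 and 427 CPM in FLAG-Lhx1, against 993 and 1348 CPM in FLAG-Lhx1-mt. Of 7 tested neural plate markers, 5 were higher and 0 lower, summing to 184 and 166 CPM in FLAG-Lhx1, against 27.5 and 41.6 CPM in FLAG-Lhx1-mt. Of 8 mesoderm markers, 3 were higher (Tcf15, Aldh1a2 and Foxc2) and 3 lower (T, Mixl1 and Mesp1). The sum of the 8 was 210.5 and 210.3 CPM in FLAG-Lhx1, against 451 and 399 CPM in FLAG-Lhx1-mt. T (239 and 150 CPM) and Mixl1 (162 and 197 CPM) gave most of the FLAG-Lhx1-mt sum. The median log2 fold of the mesoderm list was 1.23, with 5 markers higher and 3 lower without overlap, so sum and median point in opposite directions. Of 12 visceral endoderm markers, 5 were lower and 0 higher, at 1975 and 2207 CPM in FLAG-Lhx1, against 3834 and 3283 CPM in FLAG-Lhx1-mt. Over all tested genes 2.62% were called higher and 3.55% lower. The epiblast, neural plate, mesoderm and visceral endoderm sums did not overlap between the groups, as the levels of Hmga2 did not, and their part in its difference was not tested.

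Markers of extraembryonic ectoderm, trophoblast, blood and decidua were low in all 4 embryos. Those of extraembryonic ectoderm and trophoblast summed to 4.12 to 4.77 CPM in FLAG-Lhx1, against 4.73 to 5.84 CPM in FLAG-Lhx1-mt, with 0 of 4 tested genes called. Those of primitive blood summed to 2.49 to 2.82 CPM in FLAG-Lhx1, against 2.28 to 4.89 CPM in FLAG-Lhx1-mt (0 of 1 called), and those of maternal blood and decidua to 3.21 to 4.08 CPM in FLAG-Lhx1, against 3.74 to 7.70 CPM in FLAG-Lhx1-mt (0 of 3 called). FLAG-Lhx1-mt replicate 2 stood apart in genes of blood and decidua that were too low to be tested. The adult globin gene Hba-a1 had 4 and 6 counts in the FLAG-Lhx1 libraries, against 1 and 76 counts in the FLAG-Lhx1-mt libraries, and the decidual gene Prl8a2 had 2 and 3 counts in FLAG-Lhx1, against 3 and 52 counts in FLAG-Lhx1-mt. The counts of Hbb-bs were 0 and 3 in FLAG-Lhx1, against 0 and 34 in FLAG-Lhx1-mt, and those of the erythroid gene Klf1 were 4 and 2 in FLAG-Lhx1, against 2 and 39 in FLAG-Lhx1-mt. Without FLAG-Lhx1-mt replicate 2, Hmga2 was still called, at a log2 fold of 0.64 (edgeR adjusted p = 0.00847). The trophoblast gene Tpbpa had 0 and 0 counts in FLAG-Lhx1, against 2 and 7 counts in FLAG-Lhx1-mt. Germ cells also express Lin28a and other timing genes, and 0 of 4 tested germ cell markers were called, although their sum, 36.0 and 46.7 CPM in FLAG-Lhx1, against 33.2 and 32.1 CPM in FLAG-Lhx1-mt, was also apart. Ifitm3 gave most of that sum, at 23.0 and 28.6 CPM in FLAG-Lhx1, against 18.2 and 16.6 CPM in FLAG-Lhx1-mt. Ifitm3 and Tfap2c were the 2 with an unadjusted p under 0.05, and both were higher in FLAG-Lhx1. The other 2 tested markers, Prdm1 (log2 fold -0.11) and Dnd1 (-0.37), were lower in both FLAG-Lhx1 embryos, so the list had no common direction. With the length and GC offsets Ifitm3 was called, at a log2 fold of 0.79 (edgeR adjusted p = 0.0244). The log2 fold of Tfap2c was 0.93 and ran from 0.44 to 1.34 with 1 embryo left out, highest without FLAG-Lhx1-mt replicate 2.

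Genes whose profile over the 4 embryos was most like that of Hmga2 were sought by Euclidean distance between centred log2 CPM among 8593 protein-coding genes. The nearest were Homer1 (distance 0.028), which encodes a scaffold protein of synapses, Armcx2 (0.028) and Tab3 (0.041), an adaptor gene of the TAK1 kinase. Homer1 had 53.6 and 51.6 CPM in FLAG-Lhx1, against 33.3 and 34.0 CPM in FLAG-Lhx1-mt. For Lin28a the nearest was Fst, which encodes the activin antagonist follistatin (distance 0.014), for Lin28b Morn4 (0.030) and for Igf2bp2 the kinase gene Jak1 (0.028). With 4 embryos such likeness is a description only.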

How the data were processed

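Per the labels' protocols, RNA of individual embryos was amplified by the Geo-seq method (10 cycles of pre-amplification, 0.5 ng of cDNA per Nextera XT library) and read as 100 bp paired ends, with no molecular identifiers. The authors deposited raw, whole-number read counts for Ensembl genes. The submitters' processing notes name STAR, featureCounts, Subread, GRCm38 and mm10. With versions, strand and multi-mapping settings not given in the sources used here, reads of a gene and of an antisense partner cannot be told apart.

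Counts were filtered with filterByExpr (minimum count 10, minimum total 15), scaled by TMM and compared between groups with edgeR 4.0.16 (R 4.3.3; quasi-likelihood F test, group only, 2 residual and 13.4 prior degrees of freedom), with Benjamini-Hochberg adjustment over 15822 genes. The procedure was tested on simulated data. Standard errors are the log2 fold over the root of F. Symbols, lengths and UTRs are from GENCODE vM21, which holds 96.2% of the IDs, and proteins were translated from its transcripts and aligned with Biopython 1.88.

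Members and lists were chosen with earlier results of these data known. The named genes are the 8 genes, Lhx1, for each list the 4 or fewer called genes of lowest p (without a call, the 2 genes of lowest p), and the genes nearest to a member in profile with a mean of 5 CPM or more at a prior count of 2. Hmga1b, AI413582, Malsu1, Huwe1, T, Tcf15, Tpbpa, Hba-a1, Hbb-bs, Prl8a2, Klf1, Prdm1, Dnd1 and Gm10800 were added after their values were seen. Alternatives were RLE and upper-quartile scaling, DESeq2 1.42.0, voom of limma 3.58.1, edgeR's newer test, no filter, a replicate block, length and GC offsets, each embryo left out and, chosen after seeing the data, Hmga1 and Hmga1b summed.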

Additional observations from a re-analysis of the deposited data

How the results depend on the processing

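Hmga2 kept its direction in all 13 alternatives and its call in all but the fit without FLAG-Lhx1 replicate 1; its log2 fold ran from 0.56 to 0.67 with 1 embryo left out. The cause was not tested. Upper-quartile scaling called 472 genes higher and 395 lower (54.4% higher, against 42.5% with TMM) and put Trim71 at 0.029. Without the filter 952 genes were called lower and the insulin-like growth factor axis had 2 lower. Summing Hmga1 with Hmga1b gave -0.83 and 1 of the 8 genes called lower. The length and GC offsets called 689 genes, put Igf2bp3 at -0.00050, and gave median log2 folds of -0.11 for microRNA processing, -0.24 for let-7 precursors and hosts, -0.14 for TRIM71 targets and -0.076 for the 8 genes; they left 2 other let-7 targets, 1 gene of the insulin-like growth factor axis and 0 of trunk and tail timing called higher. Per kilobase of the longest transcript the levels were 37.3 (Lin28a), 17.9 (Lin28b), 52.1 (Hmga2), 12.9 (Igf2bp1), 9.58 (Igf2bp2) and 15.7 (Igf2bp3) CPM per kb. Counting CTACCTCA gave 1 match in Lin28b, 0 in Hmga1 and 1 in Hmga2. Called genes numbered 628 and 521 without FLAG-Lhx1 replicates 1 and 2, and 1648 and 1553 without FLAG-Lhx1-mt replicates 1 and 2, with 244 to 831 higher and 271 to 977 lower. Log2 folds with 1 embryo left out ran from -0.10 to 0.028 (Trim71), -0.98 to 0.15 (Hmga1), -0.19 to 0.030 (Igf2bp1), -0.067 to 0.29 (Lhx1), -2.03 to 0.27 (Mir99ahg), -0.53 to 0.12 (Gata1) and -1.44 to 0.067 (Dcn). Calls higher ran from 0 to 1 (TRIM71 targets, the 8 genes, microRNA processing, trunk and tail), 1 to 3 (insulin-like growth factor axis) and 1 to 6 (other let-7 targets), and calls lower from 0 to 1 (TRIM71 targets, other let-7 targets), 1 to 2 (insulin-like growth factor axis) and 0 to 2 (microRNA processing). Medians ran from 0.045 to 0.20 (TRIM71 targets), -0.44 to 0.52 (insulin-like growth factor axis), -0.026 to 0.25 (let-7 precursors and hosts), -0.019 to 0.16 (the 8 genes), -0.10 to 0.087 (microRNA processing) and 0.081 to 0.55 (trunk and tail). Replicate numbers did not pair the embryos (correlation of replicate differences between groups 0.0156); with the replicate block 1138 genes were called and Hmga2 had 0.63 (edgeR adjusted p = 0.00742). At 2 embryos a group, standard errors of 0.14 to 0.15 in 6 of the other genes and 0.28 in Hmga1 limit what can be seen.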
